A study of Homo sapiens with 20 samples.

Results

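The 40 genes described here encode factors that build ribosomes in the nucleolus, and they were taken by gene symbol from a count table of 60656 rows. Each symbol was found in 1 row, and all 40 were among the 24790 rows that passed a filter on low counts. They comprise 19 factors of the small subunit processome, 14 factors of large subunit assembly, 5 proteins of small nucleolar ribonucleoproteins (snoRNPs) and 2 abundant nucleolar chaperones, NPM1 and NCL. RNA was sequenced from 20 samples labelled SW1990, which is an established line of human pancreatic cancer cells, and the title of the series speaks of a mouse model. Each of the 4 treatments, named after principles of traditional Chinese medicine, has 5 samples. They were heat-clearing (also removing dampness), spleen-strengthening (also regulating qi), yin-nourishing (also eliminating heat) and blood-activating (also removing stasis). The labels give no herbs, doses, durations or host strain, and no sample is labelled as untreated, so all differences are between treatments. Whether the samples of a group came from separate mice or cultures is not given either, so p-values measure only the spread between these samples, which may be technical. A number after a treatment, as in heat-clearing 1, is the replicate number of the sample title.

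Ribosomes are made from a long precursor RNA that RNA polymerase I transcribes in the nucleolus. The small subunit processome, a particle built around the U3 snoRNA, folds and cuts the 5′ part of this precursor, while other factors fold the large subunit RNA, remove its spacers and bring in ribosomal proteins. Box C/D and H/ACA snoRNPs guide 2′-O-methylation and pseudouridylation of the same RNA. The oncoprotein MYC is known to activate many of these genes, and cancers often show enlarged nucleoli.

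Levels are given as normalised CPM, a share of each library's counts after scaling by the trimmed mean of M-values (TMM), and differences as log2 fold changes, each with its standard error (SE). Total counts were 81.7 to 135 M per library. The small nuclear RNA RN7SK took 5.25 to 7.38% of the counts in 5 libraries, heat-clearing 1 and 2 and blood-activating 1, 8 and 9, against 1.57 to 3.02% in the other 15. These 5 are called RN7SK-high, and the spleen-strengthening and yin-nourishing groups hold 0 of them. The epithelial markers KRT8, KRT18, KRT19, KRT7, EPCAM, CDH1 and MUC1 were each above 1 CPM in every library. Summed markers of other cells reached 66.6 CPM for 6 fibroblast genes, 24.2 CPM for 5 endothelial genes and 86.9 CPM for 6 myeloid genes. Most of these sums came from COL1A1 (13.3 to 54.4 CPM), PECAM1 (5.23 to 20.5) and CD68 (36.2 to 76.7). The other genes of the 3 lists reached at most 5.25 (LUM), 3.82 (VWF) and 15.2 (LYZ), with DCN at most 1.95 and PTPRC at most 0.779. The 8 pancreatic acinar genes summed to 0.758 to 219 CPM in the heat-clearing group, 0.315 to 45.4 in spleen-strengthening, 0.53 to 655 in yin-nourishing and 4.73 to 566 in blood-activating. KDR was at 0 in all heat-clearing and ITGAM in all yin-nourishing libraries. Their part in the differences below was not tested.

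All 40 factors were expressed in every library, at levels that spanned a wide range per length of exon. Per kilobase of annotated exon, NPM1 had the highest mean level, 131 CPM, followed by the H/ACA protein gene NOP10 (95.7), NCL (29.9) and the nucleolar GTPase gene GNL3 (22.4). At the other end were RRP1 (1.45), the rRNA methyltransferase gene RRP8 (1.36) and NOL12 (0.611). NOL12 had the fewest reads, 45 to 571 counts per library. Summed over the 40 genes, the level was 1811 ± 152 normalised CPM in heat-clearing (SD, n = 5), 1849 ± 97.8 in spleen-strengthening, 1926 ± 39.3 in yin-nourishing and 1768 ± 130 in blood-activating. The sums ran from 1597 to 2000 in heat-clearing, 1775 to 2016 in spleen-strengthening, 1886 to 1977 in yin-nourishing and 1600 to 1948 in blood-activating, so all 4 groups overlapped. NPM1 and NCL, with means of 500.4 and 207.2 normalised CPM, weigh most in these sums. The sum was 1735 ± 145 in the 5 RN7SK-high libraries and 1873 ± 90.8 in the other 15 (SD), with overlap.

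In 24 of 40 factors the highest library was under 2 times the lowest, and in 5 it was 4 or more times the lowest. The median ratio of highest to lowest was 1.92. It was 2.27 for the 12685 tested genes whose mean level was at or above that of the lowest member, NOL12 (2.19 normalised CPM). That set was not matched to the 40 genes in level, so the 2 medians do not set the factors apart. The narrowest range belonged to NOL11 and NCL, each 1.38-fold, and the widest to NOP2, 29.9-fold. Among 240 differences (40 genes in 6 pairs of treatments), 206 were under 0.5 in absolute log2 fold change, and the largest was 1.15. Shares of all genes are not given for these counts. The heatmap of the 40 genes shows the spread of each, with the deeper colours gathered in a few rows and in the RN7SK-high columns.

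**Figure D1:**
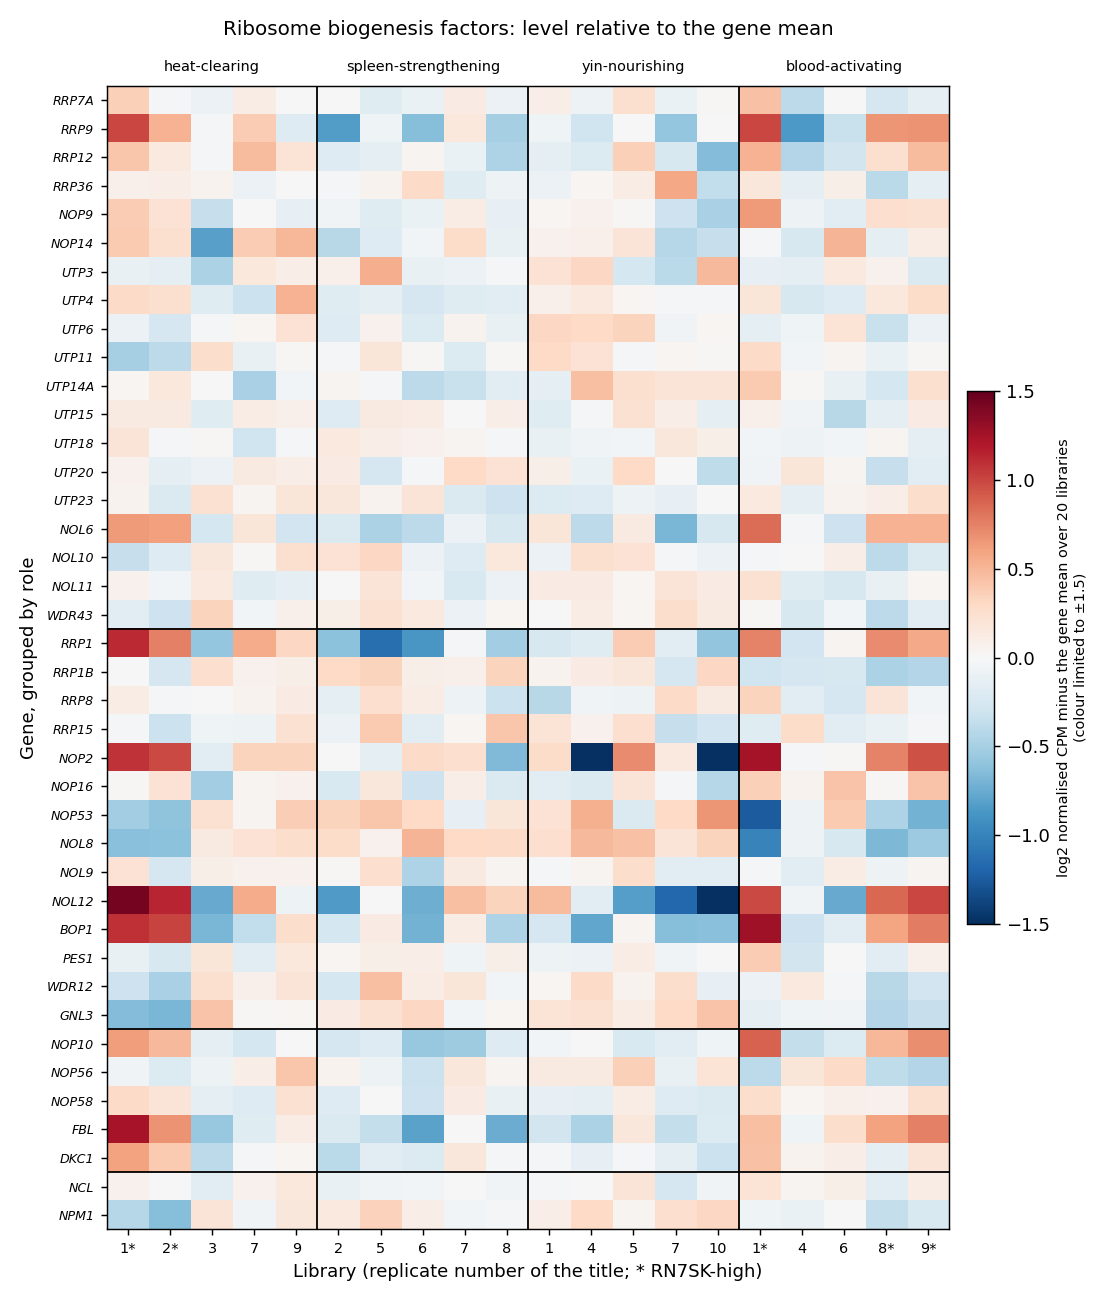
Level of the 40 factors (rows, grouped by role: small subunit, large subunit, snoRNP, chaperones) in the 20 libraries (columns, by treatment and replicate number). Colour is log2 normalised CPM minus the mean of the gene over all libraries, limited to 1.5 either way, and asterisks mark the RN7SK-high libraries. Rows such as BOP1, FBL and NOL8 differ mainly between starred and other columns, and NOP2 is darkest blue in yin-nourishing 4 and 10, where it stood at 1.68 and 3.15 normalised CPM.

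By edgeR, 0 of the 40 genes passed at an adjusted p under 0.05 either over the 4 treatments together (the 4-treatment test) or in any of the 6 pairs. Over all tested genes that rule called 0.00807% between heat-clearing and spleen-strengthening and 0% in the other 6 comparisons. At an unadjusted p under 0.05 there were 9 of 40 in the 4-treatment test, where 15.4% of all genes had such a p. By role these were 1 of 19 small subunit factors (NOL6), 5 of 14 large subunit factors (RRP1B, NOL8, RRP1, BOP1 and GNL3), 2 of 5 snoRNP proteins (FBL and NOP10) and 1 of the 2 chaperones (NPM1).

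Between pairs of treatments, the factors with an unadjusted p under 0.05 went in both directions in some pairs and in only 1 direction in others. Comparing spleen-strengthening with blood-activating, 12 had an unadjusted p under 0.05 (all genes 20.5%), 5 with a higher mean in spleen-strengthening (all genes 8.28%) and 7 with a lower one (12.2%). In yin-nourishing against blood-activating there were 14 (18.2%), 7 higher (7.74%) and 7 lower (10.5%) in yin-nourishing. Heat-clearing had 7 above spleen-strengthening and 0 below (all genes 8.44% and 3.03%, 11.5% together). Against yin-nourishing it had 4 above and 3 below (7.07% and 3.2%, 10.3% together), and against blood-activating 2 above and 0 below (0.795% and 1.06%, 1.86% together). In spleen-strengthening against yin-nourishing 0 were higher and 2 lower (2.66% and 2.05%, 4.72% together). The median log2 fold change of the 40 genes was -0.03 in spleen-strengthening against blood-activating and 0.03 in yin-nourishing against blood-activating, where all tested genes had medians of -0.04 and -0.09. The comparisons share groups, so their counts are not separate observations. Single libraries moved several of these counts by more than 1.5 times. The share of all genes is not given for the fits that leave out a library. The moves therefore do not tell the factors apart from the table as a whole. The 7 in heat-clearing against spleen-strengthening became 15 without heat-clearing 3, 1 without heat-clearing 1 and 4 without heat-clearing 2 or spleen-strengthening 6. The 7 against yin-nourishing became 13, 0 and 1 without heat-clearing 3, 1 and 2, and 4 and 3 without yin-nourishing 4 and 10. The 12 in spleen-strengthening against blood-activating became 6 without spleen-strengthening 2 or 6 or blood-activating 9, and 7 without blood-activating 1, and the 14 in yin-nourishing against blood-activating became 9 and 8 without blood-activating 1 and 9. The counts of 2 in the other pairs ran from 1 to 3 (heat-clearing against blood-activating) and from 0 to 2 (spleen-strengthening against yin-nourishing) over the libraries left out in turn.

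The other tools made more calls in 3 of the comparisons. DESeq2 called 4 of 40 in the 4-treatment test (all genes 4.98%), namely RRP1B, NOL8, RRP1 and FBL. It called 6 between spleen-strengthening and blood-activating (7.72%), these same genes with NOP10 and NOL6, and 3 between yin-nourishing and blood-activating (4.12%), RRP1B, NOL8 and BOP1. Limma voom called 6, 10 and 12 in these comparisons (all genes 8.47%, 19.8% and 16.8%). DESeq2 called 0 of the 40 between heat-clearing and each of spleen-strengthening, yin-nourishing and blood-activating (all genes 0.117%, 0.117% and 0.0404%) and between spleen-strengthening and yin-nourishing (0.121%). Voom also called 0 in these 4 (0.0121%, 0%, 0% and 0.00403%).

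By the unadjusted p, DESeq2 had 11 of 40 under 0.05 in the 4-treatment test (all genes 17.8%), 12 in spleen-strengthening against blood-activating (22.1%) and 14 in yin-nourishing against blood-activating (19.7%). In heat-clearing against spleen-strengthening, yin-nourishing and blood-activating it had 7, 8 and 2 (12.6%, 11.5% and 2.36%), and in spleen-strengthening against yin-nourishing 2 (5.5%). Voom had 15, 19 and 22 in the first 3 of these (26.1%, 33.4% and 32%), 7, 8 and 5 in the next 3 (13.7%, 12% and 8.52%) and 1 in the last (6.11%). Without the 5 RN7SK-high libraries edgeR again called 0 in all 7 comparisons (all genes 0.00353% in the 4-treatment test, 0.0106% between spleen-strengthening and blood-activating, 0% in the rest). At an unadjusted p under 0.05 that fit left 2 in the 4-treatment test, RRP1B and NOL8, where all genes had 4.46%.

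The 5 genes with the smallest p in the 4-treatment test were RRP1B, NOL8, RRP1, FBL and NOP10. The sequences upstream of RRP1, FBL and NOP10 are shown because these genes stood high together in the same libraries, as the values further on give. RRP1B has no entry in the promoter table used, and the NOL8 window lies wholly in annotated exons. Each run is from RefSeq (GRCh38.p14), 5′ to 3′ on the strand of the gene, and is the longest stretch of the 250 bases before the RefSeq start that lies outside annotated exons. Capitals mark CACGTG, the E-box that MYC and other basic helix-loop-helix factors bind, and CCGGAAG, the core of sites for ETS factors, on either strand.
RRP1 (chr21:43789327-43789512, plus strand): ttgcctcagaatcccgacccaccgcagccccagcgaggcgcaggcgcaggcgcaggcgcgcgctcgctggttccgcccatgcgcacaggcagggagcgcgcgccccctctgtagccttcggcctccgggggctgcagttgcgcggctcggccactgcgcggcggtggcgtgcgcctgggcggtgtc
FBL (chr19:39846415-39846629, minus strand): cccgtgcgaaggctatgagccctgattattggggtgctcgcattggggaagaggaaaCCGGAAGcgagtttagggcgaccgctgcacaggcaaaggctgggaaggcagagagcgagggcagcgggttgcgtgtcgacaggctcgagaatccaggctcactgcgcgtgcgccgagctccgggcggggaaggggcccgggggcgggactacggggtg
NOP10 (chr15:34343178-34343314, minus strand): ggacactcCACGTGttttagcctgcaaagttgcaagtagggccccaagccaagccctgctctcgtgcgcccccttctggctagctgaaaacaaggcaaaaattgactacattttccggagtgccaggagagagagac
The FBL stretch holds 1 CCGGAAG, the NOP10 stretch 1 CACGTG, and the RRP1 stretch neither, so the 3 printed stretches share neither motif. In the full windows of 250 bases, CCGGAAG is in both FBL and NOP10.

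Across the factors, 34 of 40 had an entry in the table, with 36 windows of 250 bases. The E-box CACGTG was in 16.7% of these windows (NOL8, UTP20, NOP10, UTP4, UTP18 and UTP14A), against 6.34% of all 35116 windows and 7.42% of the 21021 windows of protein-coding genes, the class to which all 40 belong. CCGGAAG was in 25%, against 8.52% of all and 10.8% of coding windows. The GC box GGGCGG was in 63.9%, against 42.6% and 54.4%. The TATA box TATAAA was in 5.56% (UTP20 and NOP53), against 10.7% and 8.79%. Both strands were searched, and each motif was counted by itself, also where it touched another. These are counts of letters, not of bound sites. The median GC content was 64.4% in the 36 windows, 62% in coding windows and 58% in all.

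RRP1B and NOL8 had the highest levels in the spleen-strengthening and yin-nourishing groups and the lowest in blood-activating. RRP1B encodes a nucleolar protein of the large subunit precursor that is also known as a modifier of metastasis, and lies at chr21:43659548-43696079 (hg38). It stood at 46.1, 47.0, 39.9, 39.4 and 47.1 normalised CPM in the spleen-strengthening samples 2, 5, 6, 7 and 8, and at 30.3, 31.5, 31.7, 26.9 and 27.6 in the blood-activating samples 1, 4, 6, 8 and 9. Every spleen-strengthening sample lay above every blood-activating sample. In heat-clearing 1, 2, 3, 7 and 9 it was at 37.5, 31.4, 44.6, 39.1 and 39.7, and in yin-nourishing 1, 4, 5, 7 and 10 at 38.9, 40.7, 42.2, 31.5 and 46.3. Both groups overlapped with blood-activating through 1 sample, heat-clearing 2 and yin-nourishing 7. The samples of each group are given in this order of numbers from here on.

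Group means of RRP1B were 43.9 ± 3.91 normalised CPM in spleen-strengthening and 29.6 ± 2.23 in blood-activating (SD, n = 5). The log2 fold change was 0.57 (SE 0.115, edgeR adjusted p = 0.0835), which missed the threshold, while DESeq2 (adjusted p = 0.000847) and limma voom (adjusted p = 0.0043) passed it. Against blood-activating, RRP1B was at 0.43 in yin-nourishing (SE 0.115, adjusted p = 0.141) and at 0.38 in heat-clearing (SE 0.115, adjusted p = 1). Leaving out the RN7SK-high libraries, the 3 values were 0.48, 0.34 and 0.39, with adjusted p = 0.647, 0.821 and 1. The 2 blood-activating samples left in that fit held 31.5 and 31.7, below all spleen-strengthening samples. In bulk samples, fewer cells that express a gene and less of its RNA per cell cannot be told apart.

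NOL8, a nucleolar RNA-binding protein, lies at chr9:92297358-92325636 (hg38). It was at 24.0, 20.6, 28.01, 24.3 and 24.2 normalised CPM in spleen-strengthening and at 23.4, 27.7, 26.8, 22.6 and 24.9 in yin-nourishing. Blood-activating samples held 9.82, 18.7, 16.7, 12.4 and 13.6, and heat-clearing samples 12.8, 12.9, 21.6, 23.0 and 23.7. All blood-activating samples lay below all samples of the first pair of groups, and the 5 RN7SK-high libraries (9.82 to 13.6) lay below the other 15 (16.7 to 28.01). The log2 fold change against blood-activating was 0.82 in yin-nourishing (SE 0.186, edgeR adjusted p = 0.141, DESeq2 adjusted p = 0.00947) and 0.77 in spleen-strengthening (SE 0.185, edgeR adjusted p = 0.0835). Without the RN7SK-high libraries these stood at 0.50 and 0.46 (adjusted p = 0.821 and 0.712). NOL8 shares 153 exon bases with CENPP on the other strand, and the sources do not state the strand setting of the counting.

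RRP1, the close relative of RRP1B on the same chromosome arm, had its lowest mean in spleen-strengthening, where RRP1B had its highest, and its highest mean in heat-clearing. Its samples were at 12.2, 9.52, 3.76, 8.31 and 6.997 normalised CPM in heat-clearing, 3.67, 2.56, 3.08, 5.58 and 3.91 in spleen-strengthening, 4.76, 4.98, 7.35, 5.05 and 3.74 in yin-nourishing and 9.46, 4.61, 5.80, 9.19 and 8.38 in blood-activating. The 5 RN7SK-high libraries (8.38 to 12.2) lay just above the other 15 (2.56 to 8.31). Heat-clearing exceeded spleen-strengthening by 1.12 (SE 0.284, edgeR adjusted p = 0.323), and spleen-strengthening lay below blood-activating at -0.99 (SE 0.284, adjusted p = 0.0933). Without the RN7SK-high libraries these were 0.76 (adjusted p = 1) and -0.46. RRP1 lies at chr21:43789513-43805293 and RRP1B, upstream of it on the same strand, had a mean level of 6.59 CPM per kilobase against 1.45 for RRP1.

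**Figure D2:**
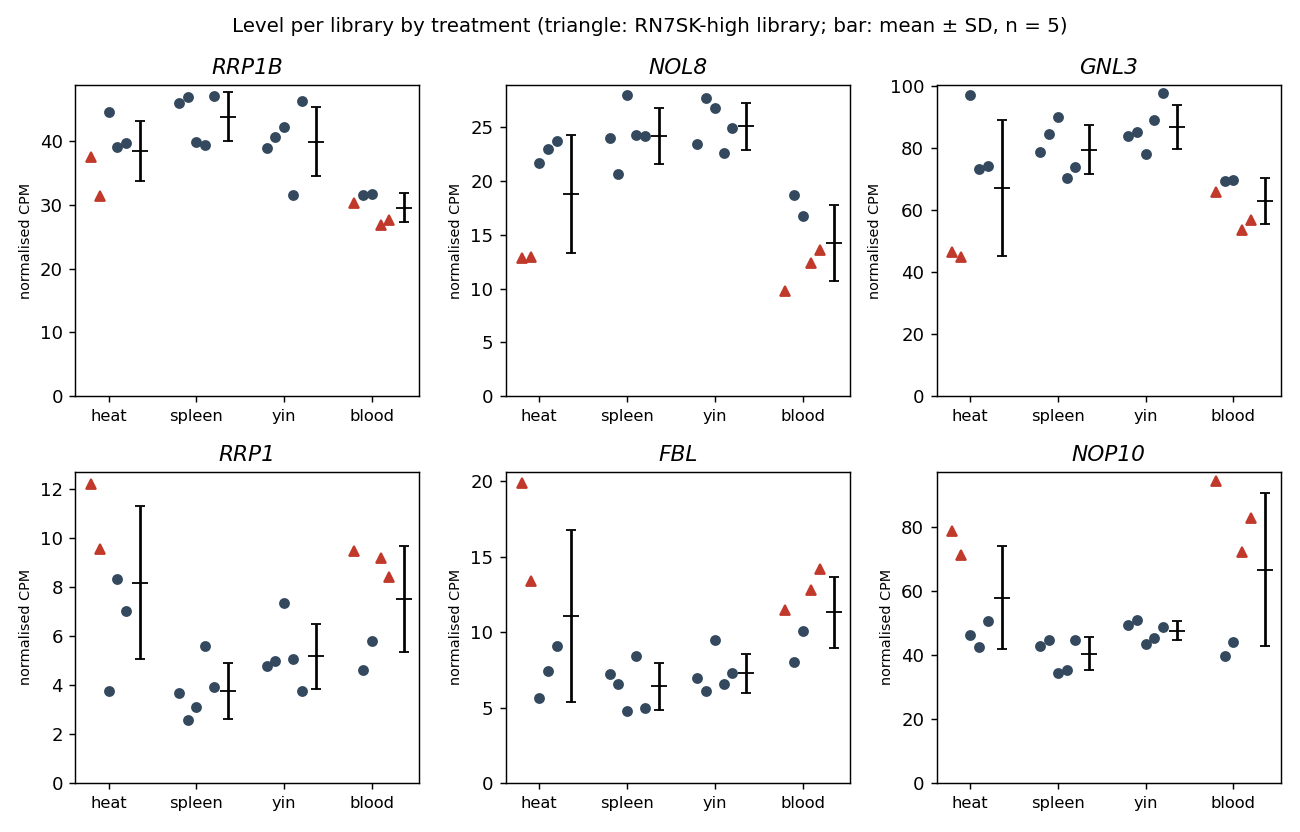
Normalised CPM of RRP1B, NOL8, GNL3, RRP1, FBL and NOP10 (1 panel each, linear axes from 0) in every library by treatment. Red triangles are the RN7SK-high libraries, dark dots the others, and the bar beside each group is its mean ± SD (n = 5). In the upper panels the blood-activating group is low, with NOL8 at 9.82 to 18.7 there, and in the lower panels the triangles are high, with NOP10 at 71.2 to 94.1 against 34.4 to 50.9 in the dots.

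BOP1, PES1 and WDR12 form the PeBoW complex, which is needed for processing of the large subunit RNA, and their transcripts did not go together. BOP1 was at 27.2, 25.6, 7.90, 9.86 and 15.3 normalised CPM in heat-clearing, 10.6, 13.8, 7.77, 13.7 and 9.23 in spleen-strengthening, 10.6, 7.38, 13.1, 8.13 and 8.25 in yin-nourishing and 30.6, 10.2, 11.4, 19.1 and 21.6 in blood-activating. The RN7SK-high libraries held 19.1 to 30.6 and the others 7.38 to 15.3. Yin-nourishing lay below blood-activating at -0.97 (SE 0.326, edgeR adjusted p = 0.146, DESeq2 adjusted p = 0.0457), and at -0.18 without the RN7SK-high libraries. PES1 kept to 48.0 to 75.9 normalised CPM over all libraries, with group means of 57.2, 60.1, 57.5 and 59.1 and an unadjusted p of 0.909 in the 4-treatment test. WDR12 had 24.0 to 31.7 in the RN7SK-high libraries and 28.2 to 46.2 in the others, lower in them within both groups that hold them, the reverse of BOP1.

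GNL3 (nucleostemin), a GTPase linked to stem cell and tumour growth, had group means of 67.3 ± 21.9 normalised CPM in heat-clearing, 79.6 ± 7.92 in spleen-strengthening, 86.8 ± 7.23 in yin-nourishing and 63.1 ± 7.40 in blood-activating. Blood-activating samples reached 69.7 at most, below the lowest spleen-strengthening sample (70.4) and the lowest yin-nourishing sample (78.3). The differences were 0.33 (SE 0.160, edgeR adjusted p = 0.238) and 0.46 (SE 0.160, adjusted p = 0.151), and without the RN7SK-high libraries 0.20 and 0.32. In spleen-strengthening against blood-activating RRP1B, NOL8 and GNL3 were the 3 of 40 genes that stood higher without overlap of the groups (all genes 1.94%) and 0 stood lower (2.49%). In yin-nourishing against blood-activating NOL8, GNL3 and NPM1 stood higher without overlap (2.26%) and 0 lower (1.86%).

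NOL12, whose yeast counterpart is a 5′ to 3′ exonuclease of the large subunit precursor, showed the largest log2 fold change of the 40 genes. Its samples were at 5.03, 4.09, 1.10, 2.72 and 1.76 normalised CPM in heat-clearing, 1.03, 1.85, 1.12, 2.54 and 2.35 in spleen-strengthening, 2.57, 1.65, 1.052, 0.824 and 0.525 in yin-nourishing and 3.68, 1.80, 1.10, 3.37 and 3.71 in blood-activating. The high values were again those of the RN7SK-high libraries, and the other heat-clearing and blood-activating samples overlapped with the remaining groups. Heat-clearing against yin-nourishing gave 1.15 (SE 0.46, edgeR adjusted p = 0.46), and 0.49 without the RN7SK-high libraries. NOL12 shares 788 exon bases with the gene Z83844.1 on its own strand, so the split of reads between the 2 is uncertain.

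NOP2, which methylates cytosine in the large subunit RNA, had the widest range of all, and its low values went with another row of the table. It was at 1.68 and 3.15 normalised CPM in yin-nourishing 4 and 10, 13.4 in spleen-strengthening 8 and 18.9 in heat-clearing 3, and at 19.1 to 50.3 in the other 16 libraries. These 4 are the libraries in which the gene AC006064.6 had over 100 counts, with 18299, 4351, 3232 and 1336. It had 37 in heat-clearing 1 and 0 in the rest. AC006064.6 is annotated on the strand of NOP2 (chr12:6556863-6568691, hg38) and shares 2550 exon bases with it and 5964 with the neighbour CHD4. Whether reads of NOP2 were counted there was not tested, and no level of NOP2 is compared between treatments for this reason.

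**Figure D3:**
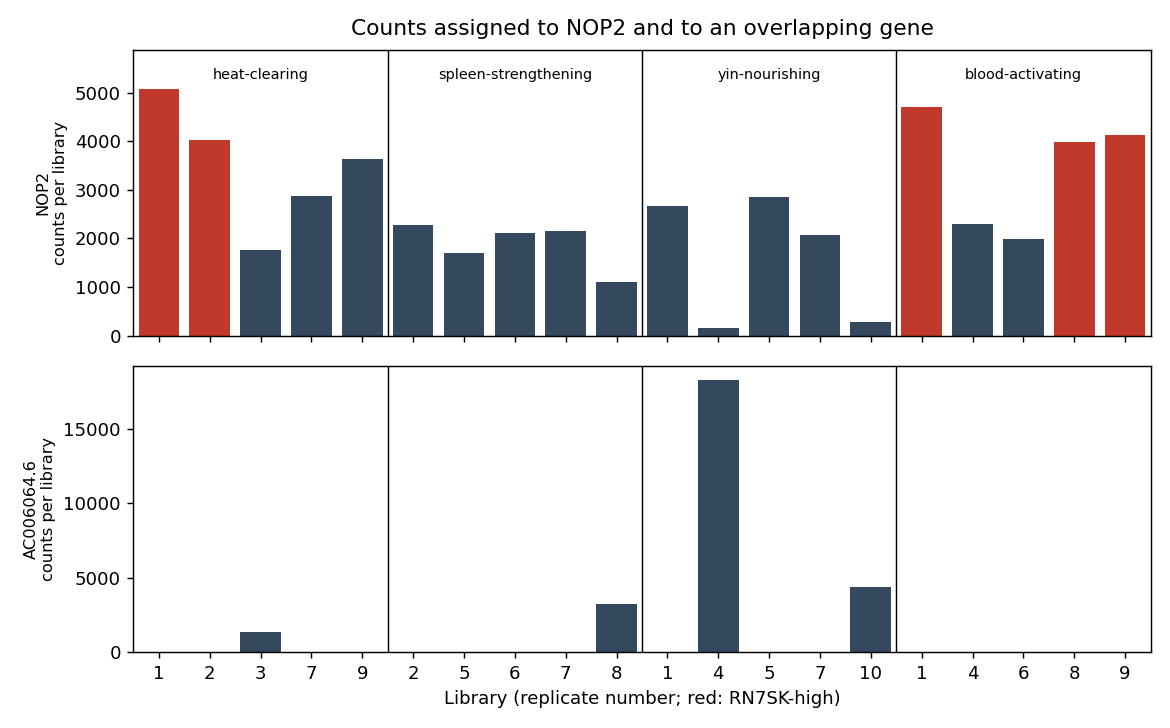
Counts per library of NOP2 (upper panel) and of AC006064.6, which shares exons with it (lower panel), by treatment and replicate number, with linear axes from 0. Bars of RN7SK-high libraries are red. The 4 tall lower bars, up to 18299 counts in yin-nourishing 4, stand under the 4 libraries with the lowest NOP2 levels after scaling, down to 157 counts.

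Of the other large subunit factors, NOP53 followed the RN7SK-high libraries and NOP16 did not. NOP53, which directs the exosome to the precursor and binds 5S ribonucleoprotein parts, had 32.6 to 56.5 normalised CPM in the RN7SK-high libraries and 66.8 to 122.5 in the others. Its means were 97.5 ± 21.4 in yin-nourishing and 62.3 ± 26.5 in blood-activating, a difference of 0.65 (SE 0.245, edgeR adjusted p = 0.175) that stood at 0.16 without these libraries. NOP16, a factor that MYC is known to activate, was at 7.95 ± 1.27 in yin-nourishing and 10.3 ± 1.42 in blood-activating (-0.38, SE 0.168, adjusted p = 0.232), with RN7SK-high and other libraries overlapping in both groups that hold them. On the other strand NOP16 shares 344 exon bases with ARL10 and 227 with HIGD2A. Its level is therefore uncertain if strand was not used in counting. RRP8, RRP15 and the polynucleotide kinase gene NOL9 ranged over 6.98 to 11.8, 13.5 to 22.9 and 24.7 to 41.1 normalised CPM, with unadjusted p of 0.964, 0.638 and 0.968 in the 4-treatment test.

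Among the 19 small subunit factors NOL6 alone had an unadjusted p under 0.05 in the 4-treatment test. NOL6 belongs to the UTP-C module, and its means were 26.1 ± 7.99 normalised CPM in heat-clearing, 18.3 ± 1.91 in spleen-strengthening, 19.9 ± 4.92 in yin-nourishing and 28.6 ± 8.78 in blood-activating. Its RN7SK-high libraries held 31.8 to 39.9 and the others 13.8 to 25.3. Spleen-strengthening lay below blood-activating at -0.64 (SE 0.219, edgeR adjusted p = 0.111, DESeq2 adjusted p = 0.0446), and at -0.11 without the RN7SK-high libraries. RRP9, a protein of the U3 snoRNP, went the same way, with means of 2.89 ± 0.837 and 4.75 ± 2.21 in these groups and -0.71 (SE 0.31, adjusted p = 0.19), which turned to 0.25 without the RN7SK-high libraries.

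UTP6 and UTP14A were the 2 genes with the smallest p between spleen-strengthening and yin-nourishing. UTP14A, which activates the helicase that releases U3, was at 11.3, 10.7, 8.33, 8.68 and 9.78 normalised CPM in spleen-strengthening and 10.02, 15, 13.0, 12.6 and 12.6 in yin-nourishing. Heat-clearing samples held 11.2, 12.2, 10.97, 7.84 and 10.6, and blood-activating samples 14.4, 11.1, 10.1, 9.16 and 13.0. Only yin-nourishing 1 fell inside the spleen-strengthening range, and the difference was -0.37 (SE 0.161, edgeR adjusted p = 0.96), and -0.37 also without the RN7SK-high libraries, of which neither group holds any. UTP6, a UTP-B protein, was at 30.5, 36.4, 30.0, 36.2 and 32.3 in spleen-strengthening and 43.3, 42.8, 43.7, 33.5 and 35.4 in yin-nourishing. It held 32.7, 29.2, 34.4, 35.5 and 40.3 in heat-clearing and 31.5, 33.4, 39.97, 27.7 and 32.8 in blood-activating, so all groups overlapped. UTP6 was at -0.26 in spleen-strengthening against yin-nourishing (SE 0.12, adjusted p = 0.991) and at 0.26 in yin-nourishing against blood-activating (SE 0.12, adjusted p = 0.241).

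UTP4, UTP15, NOL11 and WDR43 belong to the UTP-A module, which binds the precursor first. UTP4 was at 23.7, 24.5, 22.7, 23.7 and 24.3 normalised CPM in the spleen-strengthening samples, all below the yin-nourishing samples (28.5, 29.8, 27.6, 26.6 and 26.8), the 1 member lower there without overlap (all genes 0.351%). That difference was small, at -0.23 (SE 0.14, edgeR adjusted p = 1). UTP15 ranged from 13.7 to 21.5, the metazoan-specific NOL11 from 52.0 to 71.9 and WDR43 from 51.8 to 86.2, with WDR43 at 60.9 ± 6.71 in blood-activating against 72.3 ± 5.78 in spleen-strengthening (0.25, SE 0.113, adjusted p = 0.214).

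The remaining processome genes had unadjusted p from 0.0981 to 0.754 in the 4-treatment test. RRP12, an export factor of the small subunit, had the smallest of these, with means of 17.8 ± 2.48 normalised CPM in heat-clearing and 13.3 ± 1.66 in spleen-strengthening (0.41, SE 0.193, edgeR adjusted p = 0.418). RRP7A (29.8 to 53.1), NOP9 (16.3 to 35.5), RRP36 (17.0 to 33.7) and NOP14 (5.53 to 13.9) also belong here. So do UTP3 (7.10 to 14.4), UTP11 (25.3 to 43.9), the UTP-B protein gene UTP18 (18.4 to 26.0), the scaffold gene UTP20 (26.8 to 43.1), UTP23 (17.4 to 26.0) and NOL10 (31.8 to 51.7). Exons of UTP23 overlap those of RAD21 by 518 bases on the other strand, those of NOP14 overlap NOP14-AS1 by 605 and those of NOP9 overlap CIDEB by 1954, so their levels are uncertain if strand was not used in counting. CIDEB had 8 counts over all libraries, against 45436 for NOP9. NOP9 also shares 304 exon bases with LTB4R2 (2608 counts) on its own strand, where the split of reads is uncertain.

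Among the box C/D proteins, FBL differed more between treatments, in log2 fold change, than its partners NOP56 and NOP58. FBL, fibrillarin, is the 2′-O-methyltransferase, and it was at 19.9, 13.4, 5.66, 7.40 and 9.07 normalised CPM in heat-clearing and 7.23, 6.54, 4.80, 8.45 and 4.998 in spleen-strengthening. It stood at 6.94, 6.07, 9.46, 6.56 and 7.28 in yin-nourishing and at 11.5, 8.02, 10.1, 12.8 and 14.2 in blood-activating. The 5 RN7SK-high libraries (11.5 to 19.9) lay above the other 15 (4.80 to 10.1), and spleen-strengthening and blood-activating overlapped only through spleen-strengthening 7 and blood-activating 4. Their difference was -0.82 (SE 0.266, edgeR adjusted p = 0.0999, DESeq2 adjusted p = 0.034), and -0.49 without the RN7SK-high libraries (adjusted p = 0.797).

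NOP56 and NOP58, the paired scaffold proteins of the same particles, had group means of 43.3 to 52.1 and 33.1 to 39.3 normalised CPM. The means of NOP58 were lower in spleen-strengthening and yin-nourishing than in the other groups, as those of FBL were. NOP56 was at 45.4, 40.6, 44.4, 50.3 and 62.7 normalised CPM in heat-clearing, 48.6, 44.5, 37.5, 52.6 and 48.2 in spleen-strengthening, 51.5, 51.7, 60.1, 43.4 and 54.0 in yin-nourishing and 35.8, 53.1, 57.1, 36.1 and 34.5 in blood-activating. Its 3 low blood-activating samples were the RN7SK-high ones. Yin-nourishing against blood-activating was 0.27 (SE 0.151, edgeR adjusted p = 0.369) with all libraries and -0.08 without these. NOP58 was at 43.4, 40.8, 32.1, 31.1 and 41.8 in heat-clearing, 31.1, 35.6, 28.8, 38.8 and 33.1 in spleen-strengthening, 32.8, 32.1, 38.6, 31.2 and 30.7 in yin-nourishing and 42.9, 36.5, 37.4, 37.3 and 42.2 in blood-activating. In yin-nourishing 4 of 5 samples lay below all blood-activating samples, with a difference of -0.25 (SE 0.117, adjusted p = 0.263).

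Of the H/ACA proteins, NOP10 went with FBL and DKC1 was closer to even. NOP10 was at 78.5, 71.2, 46.2, 42.5 and 50.5 normalised CPM in heat-clearing, 42.9, 44.6, 34.4, 35.2 and 44.6 in spleen-strengthening, 49.4, 50.9, 43.5, 45.4 and 48.5 in yin-nourishing and 94.1, 39.7, 44.0, 72.0 and 82.8 in blood-activating. The RN7SK-high libraries stood wholly apart, at 71.2 and above, while the other 2 blood-activating samples lay inside the spleen-strengthening range. Accordingly spleen-strengthening against blood-activating was -0.72 with all libraries (SE 0.202, edgeR adjusted p = 0.0933, DESeq2 adjusted p = 0.0189) and -0.05 without them. DKC1, dyskerin, the pseudouridine synthase mutated in dyskeratosis congenita, had means of 35.1 ± 9.27, 28.97 ± 4.31, 28.8 ± 2.34 and 34.5 ± 5.13 in the heat-clearing, spleen-strengthening, yin-nourishing and blood-activating groups, with an unadjusted p of 0.145 in the 4-treatment test.

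The chaperones NPM1 and NCL had the highest normalised CPM of the 40 genes in every library. NPM1, nucleophosmin, a histone chaperone that also binds the tumour suppressor ARF, lies at chr5:171387116-171411137 (hg38). It was at 366, 317, 565.5, 477 and 553 normalised CPM in heat-clearing, 546, 629, 527, 477.5 and 486 in spleen-strengthening, 529.9, 606, 506, 587 and 611 in yin-nourishing and 469.9, 458, 492, 384 and 419.7 in blood-activating. Every yin-nourishing sample exceeded every blood-activating sample, by 0.35 (SE 0.136, edgeR adjusted p = 0.176), and by 0.26 without the RN7SK-high libraries. The table holds 46 rows of NPM1 pseudogenes with counts equal to 11.1% of those of NPM1, so some of its reads may have been counted there or the other way round.

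NCL, nucleolin, which binds the precursor RNA and helps polymerase I transcription, lies at chr2:231453531-231483641 (hg38) and was among the steadiest of the 40. Its samples were at 216, 206, 185, 215 and 231 normalised CPM in heat-clearing, 191.5, 199, 200.5, 205 and 199.6 in spleen-strengthening, 203.5, 205.5, 236, 173 and 198.5 in yin-nourishing and 239, 213, 219, 185 and 223 in blood-activating. All groups overlapped, and the difference with the smallest p, spleen-strengthening against blood-activating, was -0.11 (SE 0.0924, edgeR adjusted p = 0.554).

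The RN7SK-high libraries stood apart in 16 of the 40 genes. In heat-clearing and in blood-activating alike, these libraries lay above all others for 9 genes (RRP9, NOP9, NOL6, RRP1, NOP2, NOL12, BOP1, NOP10 and FBL; all genes 12.3%) and below all others for 7 (UTP6, NOL10, RRP1B, NOP53, NOL8, WDR12 and GNL3; all genes 10%). The median GC content of the annotated transcripts was 56.7% for the 9 genes above, 42.6% for the 7 below and 46.9% for the other 24. Over all tested genes with a value the same 3 classes had medians of 58.1%, 43.6% and 48.6%, so the factors followed the order of the table as a whole. Heat-clearing and blood-activating hold all of these libraries, and the treatment differences were refitted both without them and with a term for them in the fit of all 20 libraries.

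Without them, blood-activating was left with samples 4 and 6 alone and heat-clearing with 3, 7 and 9. In that fit the large subunit genes RRP1B and NOL8 kept the smallest p between spleen-strengthening and blood-activating. They were the only 2 of 40 under 0.05 unadjusted, both higher in spleen-strengthening (all genes 2.5% higher, 4.07% lower). In yin-nourishing against blood-activating 5 were higher, RRP1B, NOL8, GNL3, NPM1 and NOL11 (0.33, SE 0.124), and 0 lower (all genes 2.67% and 3.32%). Heat-clearing stood above blood-activating for 4, RRP12 (0.60, SE 0.242), WDR43, RRP1B and NOL8, and below for 0 (1.47% and 2.1%). Heat-clearing stood above spleen-strengthening for RRP1 alone (2.94%) and differed from yin-nourishing in 0 (4.36%). Spleen-strengthening lay below yin-nourishing for 3, UTP6, UTP14A and NOP10 (3.18%). In the plot of both fits RRP1B stays near the line of equal values, NOL8 moves part of the way to 0, and NOP10, BOP1 and NOP53 move to near 0.

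**Figure D4:**
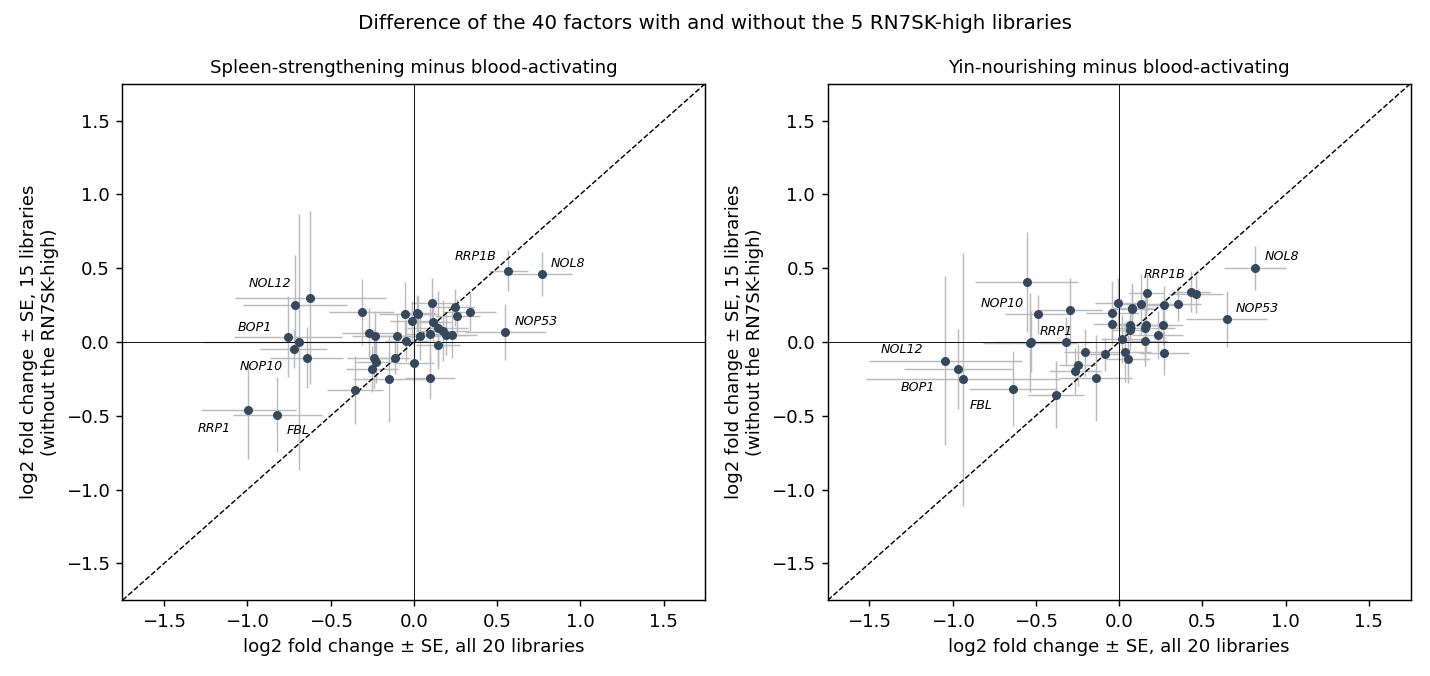
Log2 fold change ± SE of the 40 genes with all 20 libraries (x axis) and with the 15 libraries that are not RN7SK-high (y axis), for spleen-strengthening minus blood-activating (left) and yin-nourishing minus blood-activating (right). On the y axis the blood-activating group is samples 4 and 6 alone. The dashed line marks equal values. RRP1B (0.57 and 0.48) and NOL8 (0.77 and 0.46) stay high on the left, while NOP10 (-0.72 and -0.05) drops to near 0.

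Other genes of the pathway, from lists that hold no member, gave 0 calls by edgeR in any of the 7 comparisons. Between spleen-strengthening and blood-activating, where 8.28% of all genes were higher and 12.2% lower at an unadjusted p under 0.05, 3 of 17 genes of RNA polymerase I and its factors were higher and 2 lower. TAF1C, a subunit of the polymerase I selectivity factor, was at 5.18 ± 0.967 against 10.6 ± 3.49 normalised CPM (-1.03, SE 0.254, adjusted p = 0.0835), and TCOF1, treacle, at 15.4 against 21.9 (-0.51, SE 0.179, adjusted p = 0.119). Of 30 other small subunit factors 4 were higher and 7 lower. TBL3, a UTP-B protein, was at 16.8 against 29.04 (-0.79, SE 0.194, adjusted p = 0.0835) and NOL7 at 25.4 against 13.9 (0.87, SE 0.26, adjusted p = 0.0938).

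Of 38 other large subunit factors 8 were higher and 7 lower, among them the methyltransferase gene FTSJ3 (-0.65, SE 0.206, edgeR adjusted p = 0.0985) and the subunit-joining inhibitor EIF6 (-0.69, SE 0.192, adjusted p = 0.0933). The 12 other snoRNP proteins and assembly factors had 4 higher and 1 lower. The partners of NOP10 and DKC1 in the H/ACA core split, with NHP2 at 3.44 ± 1.13 against 14.2 ± 7.57 (-2.05, SE 0.406, adjusted p = 0.0835) and GAR1 at 18.6 against 10.6 (0.81, SE 0.268, adjusted p = 0.103). Among 13 genes of the MYC network and the p53 checkpoint 1 was higher and 5 lower, including RPL11 and RPL5, which can bind MDM2 together with 5S RNA (each -0.67, adjusted p = 0.0835 and 0.0974). MYC itself was at 36.4 in spleen-strengthening, 40.6 in yin-nourishing, 46.3 in heat-clearing and 46.6 in blood-activating, with an unadjusted p of 0.229 in the 4-treatment test.

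These 10 named pathway genes other than MYC were picked by the smallest p in the 4-treatment test. Only heat-clearing and blood-activating hold RN7SK-high libraries, so that choice favours genes that split by these libraries. All 10 stood apart in the RN7SK-high libraries, within heat-clearing and within blood-activating (all genes 12.3% above and 10% below). NOL7 and GAR1 were lower there (NOL7 8.97 to 12.7 normalised CPM against 19.49 to 32.9 in the other 15) and the other 8 higher, such as TAF1C (12.1 to 16.9 against 4.38 to 8.32), EIF6 (122.8 to 157.5 against 57.8 to 103.1) and NHP2 (14.7 to 23.4 against 2.04 to 8.34). Without these libraries the differences between spleen-strengthening and blood-activating were -0.94 for NHP2, -0.39 for TAF1C, -0.29 for TCOF1, -0.39 for TBL3 and 0.34 for NOL7. They were -0.15 for FTSJ3, -0.28 for EIF6, 0.45 for GAR1, -0.36 for RPL11 and -0.06 for RPL5. In that fit the counts at an unadjusted p under 0.05, higher and lower, were 1 and 0 for RNA polymerase I, 2 and 1 for the other small subunit factors and 0 and 1 for the other large subunit factors. They were 2 and 1 for the other snoRNP proteins and 0 and 2 for the MYC and p53 genes, where 2.5% of all genes were higher and 4.07% lower.

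Several of the factors carry snoRNA genes within them, which guide the modifications that FBL and DKC1 catalyse. By annotation 8 of the 40 (NOL11, WDR43, NOP53, GNL3, NOP56, NOP58, DKC1 and NCL) hold snoRNA genes under 24 distinct labels. Of these labels 21 have a row in the table and 4 passed the filter. The 4 were SNORA38B in NOL11, SNORD53B in WDR43, SNORD69 in GNL3 and SNORD20 in NCL, with 151 to 420 counts in all libraries together and at most 46 in 1. At this depth snoRNA levels could not be compared between treatments.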

How the data were processed

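The authors deposited counts, whole numbers per gene and sample that were not normalised. Per the labels' protocols RNA was extracted with TRIzol, depleted of ribosomal RNA and made into libraries with a directional kit. The submitters' processing notes name HISAT2, StringTie and hg38. The sources used here do not give the annotation, versions, strand setting or any removal of mouse reads.

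Scaling was by TMM, and tests used edgeR 4.0.16 (R 4.3.3; robust quasi-likelihood F-test, all 20 samples in 1 fit, filter with a minimum count of 10), and p-values were adjusted by Benjamini-Hochberg over all 24790 rows of each comparison, with a threshold of 0.05. The test was checked on simulated data. DESeq2 1.42.0, limma voom (limma 3.58.1), RLE scaling, other filters (none, or 1 CPM in 5 samples), the letter ending each title, the replicate number as a block, each pair alone, and fits without single libraries or without the RN7SK-high ones (over 4% of counts) were alternatives. Positions and exon lengths came from GENCODE release 29 on hg38, promoters from RefSeq. Total counts were 81.7 to 135 M per sample.

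Members and gene lists were chosen with earlier results of these data known. Values per sample are given for the 2 genes with the smallest p in each comparison, for RRP1, RRP1B, NOP56, NOP58, FBL, NPM1 and NCL by rule, and for NOP10, chosen after its values were seen. Other members are given by range or group mean. UTP4 is also given per sample in spleen-strengthening and yin-nourishing, picked because these groups did not overlap. Of each other pathway list the 2 genes with the smallest p in the 4-treatment test are named, and MYC.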

Additional observations from a re-analysis of the deposited data

Results flagged for a closer look

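In 4 of 160 groups (40 genes in 4 treatments), 1 sample stood farther from the other 4 than Dixon's test at 95% allows. Chance flags about 1 in 20 groups. NOP14 was at 5.53 normalised CPM in heat-clearing 3, against 11.5 to 13.8 in the other heat-clearing samples. In the same library UTP15 was at 16.2, against 19.3 to 20.2. UTP3 was at 14.4 in spleen-strengthening 5, against 9.2 to 10.4, and NOP58 at 38.6 in yin-nourishing 5, against 30.7 to 32.8. None of these 3 libraries is RN7SK-high.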

How the results depend on the processing

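With edgeR the count of members past the threshold was 0 of 40 in all 7 comparisons with RLE scaling, no filter, the strict filter, the title letter, the replicate block, the RN7SK-high libraries left out or given a term in the fit, and for the 6 pairs also fitted alone. DESeq2 gave 4 in the 4-treatment test, 6 in spleen-strengthening against blood-activating and 3 in yin-nourishing against blood-activating, and limma voom 6, 10 and 12. Leaving out each of the 20 libraries in turn gave 0 to 2 in the 4-treatment test (2 without heat-clearing 3). In spleen-strengthening against blood-activating it gave 0 to 6 (6 without blood-activating 4, 3 without heat-clearing 3). It gave 0 to 1 in yin-nourishing against blood-activating (1 without blood-activating 4) and 0 in the other 4 comparisons. The share of all genes called is not given for these fits, so their counts are not a result about the factors alone. Of 360 alternative fits of the 12 members named by rule, 344 kept direction and side of the threshold, 15 newly passed it, 0 lost it and 1 reversed: NOP56 in yin-nourishing against blood-activating, 0.27 to -0.0771 without the RN7SK-high libraries. The cause was not tested.

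The labels do not say whether equal replicate numbers match samples across treatments, and correlations between samples cannot settle it. Deviations from group means correlated at -0.187 to 0.337 in the 12 same-numbered pairs (median 0.00539, 1 of 12 over 0.1), and 1 of 18 samples correlated best with its own number. With the replicate block 0 members passed in each comparison, as without it, and the unadjusted counts fell by over 1.5 times in 4 pairs. They were 4 (7 without the block) in heat-clearing against spleen-strengthening, where all 24790 genes had 2151 (2844), and 3 (7) in heat-clearing against yin-nourishing, where all had 1188 (2547). They were 0 (2) in spleen-strengthening against yin-nourishing, where all had 607 (1169), and 9 (14) in yin-nourishing against blood-activating, where all had 2712 (4512). Depth limits NOL12 (45 counts at the lowest) and the snoRNAs.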
